A study of Sus scrofa with 6 samples.

Results

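Insulin signalling in pig loin muscle was examined through 9 genes: the insulin receptor INSR, its substrates IRS1 and IRS2, the phosphoinositide 3-kinase subunit PIK3R1, the kinase AKT2, the Rab GTPase-activating proteins TBC1D1 and TBC1D4, the glucose transporter SLC2A4 (GLUT4) and the inhibitory adaptor GRB10. A gene was taken where the deposited table of 25322 genes lists its symbol, which was so for 6 of the 9, namely INSR, IRS1, PIK3R1, AKT2, SLC2A4 and GRB10. IRS2 was not analysed here. TBC1D4 and TBC1D1 have no symbol in the table, and their rows were found by gene ID or by the orthology description in the table. They are described apart from the 6. The tissue was the longissimus dorsi, the long back muscle, with 3 RNA sequencing libraries from Wei pigs and 3 from Yorkshire pigs. Wei pigs were fed commercial feed freely up to a slaughter weight of 90 kg, and Yorkshire pigs were kept under similar conditions, with no weight given. The labels give neither age nor sex, and do not say that each library is a separate animal. Every p-value below thus measures only how these libraries vary, which may be technical. By the Y-chromosome counts given below, Wei replicate 2 alone reads as another animal than the other libraries of its breed.

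Insulin binds INSR at the muscle surface, and the active receptor phosphorylates IRS proteins, which recruit phosphoinositide 3-kinase through its regulatory subunit. The kinase AKT2 is activated downstream and phosphorylates TBC1D4 and TBC1D1, which releases their hold on Rab proteins and lets vesicles carrying GLUT4 fuse with the plasma membrane. Skeletal muscle takes up most of the glucose that insulin clears from blood. GRB10 binds the active receptor and dampens the signal.

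Total gene counts were between 15285197 and 22570075 in Wei libraries and between 17876646 and 27096747 in Yorkshire libraries. Skeletal muscle fibre markers, of which 9 of 12 listed genes have a row, summed to between 115000 and 201000 CPM (counts divided by the scaled library total) in Wei and between 166000 and 189000 in Yorkshire, with 0 of 9 past the threshold of edgeR, DESeq2 or limma voom (0 at an unadjusted p under 0.05 with edgeR). Fibroblast markers (8 of 9 with a row, none at 0) summed to 570 to 1560 CPM in Wei against 2050 to 3380 in Yorkshire. Lymphocyte markers (11 of 11, none at 0) summed to 7.87 to 8.58 against 10.7 to 44.3, with only Yorkshire replicate 3 above 13.55. The sums of both lists thus did not overlap between breeds. Among single tested genes, 29.6% did not overlap. EdgeR called 1 of 8 tested fibroblast genes, lower in Wei, and 0 of 5 tested lymphocyte genes (4 at an unadjusted p under 0.05). DESeq2 called 4 and 2 of them, all lower in Wei. Over all 13209 tested genes, edgeR called 5.08% and DESeq2 called 1291. With edgeR 3075 of these had an unadjusted p under 0.05. Adipocyte markers (9 of 10, ADRB3 at 0) summed to 1200 to 1540 CPM in Wei and 1170 to 1320 in Yorkshire. Of 7 tested adipocyte genes, 1 was called higher in Wei with each of edgeR, DESeq2 and limma voom. Endothelial, smooth muscle, macrophage, satellite cell and red blood cell marker sums overlapped between breeds. Macrophage markers reached 170 CPM in Yorkshire replicate 3 against at most 51.7 in Wei. Of 8 tested smooth muscle and pericyte genes, edgeR and limma voom each called 1 and DESeq2 2, all lower in Wei. With edgeR 5 of the 8 had an unadjusted p under 0.05. DESeq2 also called 1 of 8 tested macrophage genes, lower in Wei. No tool called an endothelial, satellite cell or red blood cell gene. Y-chromosome genes summed to 6901 counts in Wei replicate 2, and no other library exceeded 14. By these counts Wei replicate 2 alone reads as male, so sex was mixed in Wei and not in Yorkshire. The part of these differences in the results below was not tested. In whole muscle, fewer cells of a type and less RNA per cell cannot be told apart.

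GRB10 was higher in Wei muscle, and it was the only gene of the 6 to pass the test. IRS1, AKT2, SLC2A4 and INSR had higher means in Wei, and PIK3R1 a lower mean, but these differences did not pass. The test was edgeR's quasi-likelihood test over all 13209 genes above the count filter, with a Benjamini-Hochberg adjusted p under 0.05 as the threshold. All 6 genes cleared the filter. The 1 higher and 0 lower calls among 6 stand beside a background of 2.73% of tested genes higher and 2.35% lower in Wei, or 5.08% in either direction. The median log2 fold change (Wei over Yorkshire, as throughout) was 0.47 over the 6 genes and -0.02 over all tested genes. Without adjustment, 4 of the 6 had a p under 0.05, as did 3075 of all 13209 tested genes. A p that misses the threshold does not show that breeds did not differ.

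**Figure D1:**
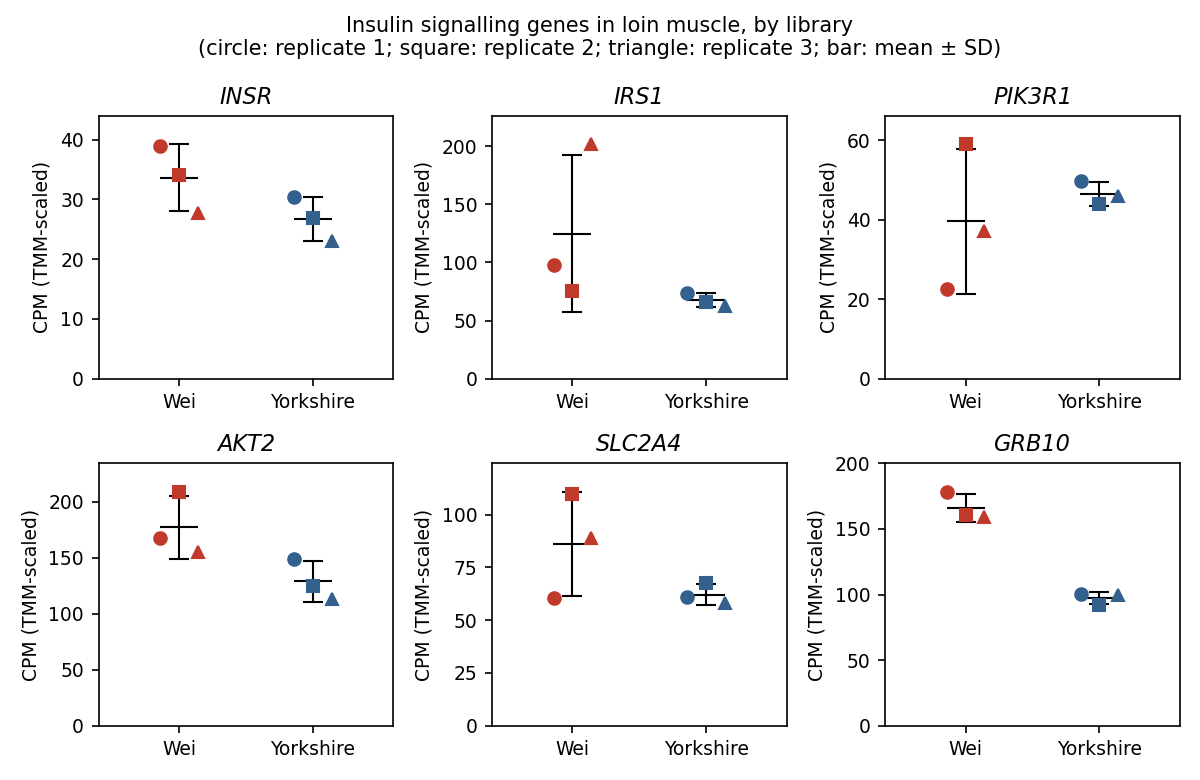
CPM after TMM scaling (y axis, from 0) of the 6 genes in each Wei and Yorkshire library; symbols are single libraries and bars the mean ± SD of 3. For GRB10 the 3 Wei libraries, at 159 or more, all lie above the 3 Yorkshire libraries, at 100.5 or less, while IRS1, PIK3R1 and SLC2A4 spread widely among Wei libraries.

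INSR encodes the receptor tyrosine kinase itself (ENSSSCG00000013564, chromosome 2, 72388087 to 72425053 in Sscrofa10.2). It stood at 39.0, 34.0 and 27.8 CPM in Wei replicates 1 to 3, against 30.4, 26.9 and 23.0 in Yorkshire replicates 1 to 3. The breeds overlap, since Yorkshire replicate 1 exceeded Wei replicate 3. This is a log2 fold change of 0.33 ± 0.17 (SE; edgeR adjusted p = 0.281). The gene name table gives a further row to INSR, ENSSSCG00000013566, a shorter model of 1793 bases on the same chromosome and 30456 bases away. There the Wei values were 8.17, 9.36 and 7.54 CPM, against 6.41, 5.59 and 6.92 in Yorkshire, and did not overlap (log2 fold change 0.40 ± 0.17, edgeR adjusted p = 0.206).

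IRS1 is the docking protein that couples the receptor to phosphoinositide 3-kinase (ENSSSCG00000025729, chromosome 15, 142086244 to 142089969). It stood at 97.9, 75.3 and 202 CPM in Wei, against 73.9, 66.1 and 62.2 in Yorkshire. Wei replicate 3 stood far above the other libraries, and the gap between the lowest Wei and the highest Yorkshire value was small. The log2 fold change of 0.89 ± 0.32 was the largest of the 6, and its adjusted p was 0.147 (edgeR). It was 0.36 without Wei replicate 3 and 1.16 without Wei replicate 2, and passed in neither fit. DESeq2, another count test, gave IRS1 an adjusted p of 0.0438. Values of 3 of the 6 genes (IRS1, AKT2 and GRB10) did not overlap between breeds, where 29.6% of all tested genes did not.

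PIK3R1 encodes the regulatory subunit that docks the lipid kinase on IRS proteins (ENSSSCG00000021964, chromosome 16, 50135843 to 50164238). Its values were 22.5, 59.0 and 37.2 CPM in Wei and 49.7, 43.9 and 45.9 CPM in Yorkshire. Wei held both the lowest and the highest library, replicates 1 and 2. On the log2 scale the difference was -0.24 ± 0.29 (edgeR adjusted p = 0.669), and it lay between -0.63 and 0.06 with single libraries left out, turning sign without Wei replicate 1. A further row on chromosome 16, ENSSSCG00000016958, carries the same identity by gene ID and by its orthology description, 202864 bases from the other. It gave 19.2, 51.0 and 36.0 CPM in Wei against 52.0, 38.3 and 42.3 in Yorkshire. Both rows were lowest in Wei replicate 1 and highest in Wei replicate 2 among Wei libraries. The log2 fold change of the further row was -0.32 ± 0.31 (edgeR adjusted p = 0.563).

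AKT2 encodes the AKT kinase most closely tied to insulin-stimulated glucose uptake (ENSSSCG00000002989, chromosome 6, 44331702 to 44378138). It stood at 167, 209 and 155 CPM in Wei, against 149, 124.5 and 113 in Yorkshire. Each Wei value lay above each Yorkshire value, by a small margin between Wei replicate 3 and Yorkshire replicate 1. The log2 fold change of 0.46 ± 0.16, or 1.37-fold, had an edgeR adjusted p of 0.138.

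TBC1D4 is the AKT substrate that keeps GLUT4 inside the resting cell, and 2 neighbouring rows on chromosome 11 carry its orthology description. The row ENSSSCG00000009464 (52202660 to 52264604) had 49.05, 57.6 and 72.3 CPM in Wei, against 67.4, 48.8 and 43.9 in Yorkshire. The row ENSSSCG00000009465 (52159564 to 52187156) had 84.1, 102 and 154 CPM in Wei, against 99.2, 87.2 and 72.25 in Yorkshire. In both, the breeds overlapped and Wei replicate 3 was the highest library. Their log2 fold changes were 0.16 ± 0.20 and 0.39 ± 0.23, with edgeR adjusted p of 0.669 and 0.335. Without Wei replicate 3 they were 0 and 0.11, and over all fits that left out a library they reached at most 0.37 and 0.58. TBC1D1 is the related Rab regulator, which AMPK also phosphorylates. Its row by gene ID, ENSSSCG00000028983 (chromosome 8, 30863652 to 30891119), held 54, 28 and 39 counts in Wei and 65, 9 and 67 in Yorkshire. This row is a short model of 1225 bases, with few counts and a wide spread among Yorkshire libraries. Its difference between breeds did not pass (log2 fold change 0.31 ± 0.55, edgeR adjusted p = 0.762).

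SLC2A4 encodes GLUT4, the transporter that insulin brings to the muscle surface (ENSSSCG00000023915, chromosome 12, 54811260 to 54816695). Its values were 60.6, 110 and 88.8 CPM in Wei and 60.9, 67.5 and 57.9 CPM in Yorkshire. Wei replicate 1 lay within the Yorkshire range and the other Wei libraries above it. Its log2 fold change was 0.48 ± 0.21 (edgeR adjusted p = 0.209), with 0.27 (adjusted p = 0.444) without Wei replicate 2, the highest library, and 0.68 (adjusted p = 0.0747) without Wei replicate 1, the lowest of the breed. A row on chromosome 3, ENSSSCG00000017933 (139903946 to 139910176), is described in the table as the same transporter. It gave 78.0, 134 and 111 CPM in Wei against 74.0, 90.4 and 76.3 in Yorkshire, and its difference was 0.42 ± 0.20 on the log2 scale (edgeR adjusted p = 0.24). The per-length level of the chromosome 12 row was between 1.27 and 1.40 times that of the chromosome 3 row in all 6 libraries. How alike the sequences of these rows are was not checked. If they are alike, counting could split reads between them, so the level of each is uncertain.

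GRB10, an adaptor that binds the active insulin receptor and whose loss in mice raises muscle mass, rose in Wei (ENSSSCG00000015631, chromosome 9, 150266276 to 150423905). It stood at 179, 161 and 159 CPM in Wei, against 100.5, 92.25 and 99.9 in Yorkshire. The breeds were apart by far more than the spread within either, with means of 166 ± 10.8 CPM in Wei and 97.6 ± 4.61 in Yorkshire (SD, n = 3 each). The log2 fold change was 0.77 ± 0.12, or 1.7-fold (edgeR's quasi-likelihood test, adjusted p = 0.0163), and GRB10 was rank 113 of 13209 by p. Its size changed little when single libraries were left out, lying between 0.72 and 0.80, but it missed the threshold without Yorkshire replicate 2 (adjusted p = 0.0785) or Yorkshire replicate 3 (0.0545). The 1 row that overlaps GRB10 had 0 counts.

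**Figure D2:**
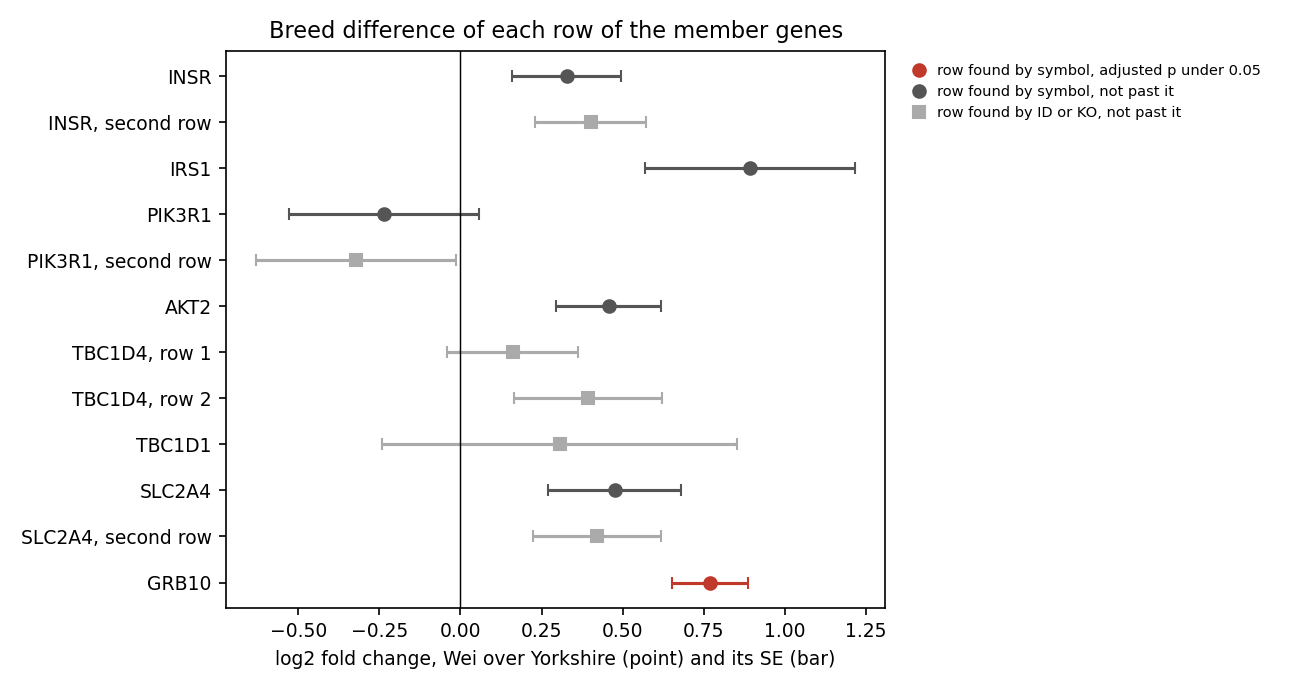
Log2 fold change of Wei over Yorkshire (x axis; bars are ± SE) for the 6 rows found by symbol (circles) and the 6 further rows found by gene ID or orthology description (squares). GRB10, at 0.77, is the only row past the threshold; the rows of a gene lie on the same side of 0 for INSR, PIK3R1, TBC1D4 and SLC2A4.

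Adding the rows of INSR, PIK3R1 and SLC2A4 together before the fit gave log2 fold changes of 0.34, -0.28 and 0.45. None passed (edgeR adjusted p of 0.214, 0.616 and 0.227), and GRB10 remained the gene called, with an adjusted p of 0.0162.

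On the per-length scale of the deposited FPKM, the order of levels was the same in both breeds: SLC2A4, AKT2, GRB10, IRS1, PIK3R1, INSR. SLC2A4 averaged 51.2 ± 12.2 FPKM in Wei and 37.8 ± 3.27 in Yorkshire (SD, n = 3 each). AKT2 averaged 36.1 ± 6.66 FPKM in Wei and 26.5 ± 2.10 in Yorkshire. GRB10 averaged 34.9 ± 5.86 FPKM in Wei and 20.7 ± 1.55 in Yorkshire, and IRS1 32.6 ± 14.99 in Wei and 18.2 ± 0.488 in Yorkshire. The receptor and the kinase subunit were lower, with PIK3R1 at 6.40 ± 2.79 FPKM in Wei and 7.75 ± 0.383 in Yorkshire, and INSR at 4.30 ± 1.14 in Wei and 3.41 ± 0.261 in Yorkshire. In Yorkshire no neighbours in this order overlapped between libraries. In Wei, SLC2A4 and AKT2, AKT2 and GRB10, GRB10 and IRS1, and PIK3R1 and INSR overlapped, which leaves only the step between IRS1 and PIK3R1 clear of the spread. The row of IRS1 is a single stretch of 3726 bases, so its FPKM is per that length alone, whereas the row of INSR spans 36967 bases with a model of 7860.

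**Figure D3:**
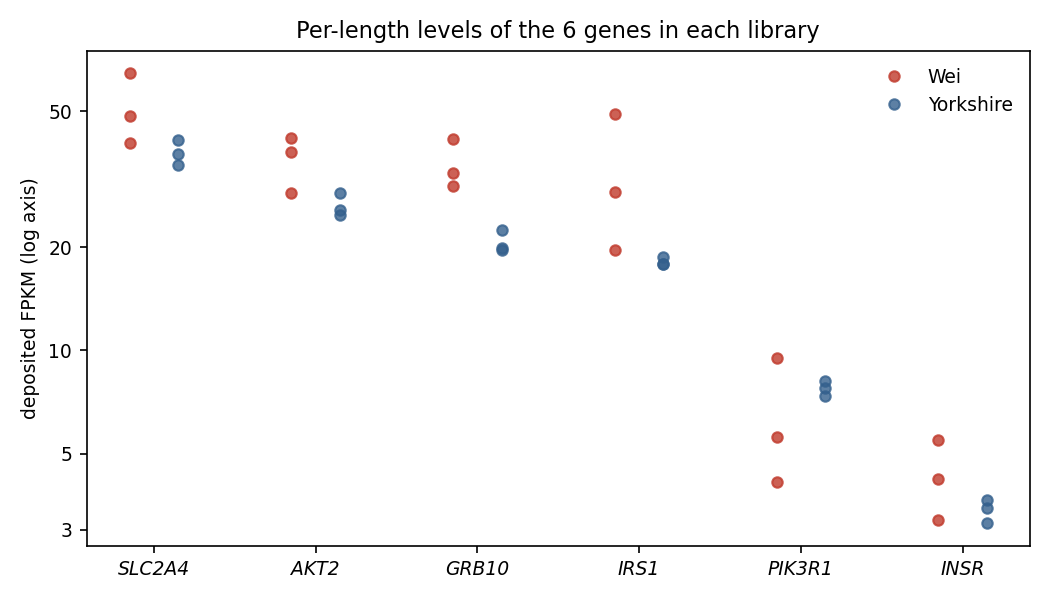
Deposited FPKM (log y axis) of the 6 genes in each library, Wei in red and Yorkshire in blue, ordered by the Wei mean. Yorkshire libraries form 6 separate levels between 3.13 and 41.2 FPKM, while Wei libraries of the upper 4 genes overlap between 19.7 and 64.5.

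Spread within a breed differed between genes. The coefficient of variation of CPM was 54.0% for IRS1, 46.4% for PIK3R1 and 28.5% for SLC2A4 among Wei libraries, against 8.84%, 6.34% and 7.91% among Yorkshire libraries. It was 16.7% for INSR, 16.0% for AKT2 and 6.48% for GRB10 in Wei, against 13.7%, 14.2% and 4.73% in Yorkshire. These 6 genes thus varied more among Wei than Yorkshire libraries, as did 55.9% of all tested genes, for which the median was 17.2% in Wei and 14.9% in Yorkshire. The reverse held for TBC1D1, at 33.3% in Wei against 63.1% in Yorkshire, and for the TBC1D4 row ENSSSCG00000009464, at 19.7% against 23.2%. Among Wei libraries PIK3R1 and SLC2A4 were both highest in replicate 2 and lowest in replicate 1, while IRS1 was highest in replicate 3 and lowest in replicate 2. Wei replicate 1 also differed in make-up. Its skeletal muscle fibre markers summed to 115000 CPM, against 163400 or more in each other library. The fibre gene ACTA1 held 3.771% of its counts, against 6.515% or more in each other library. Wei replicate 2, the highest Wei library for PIK3R1, SLC2A4 and AKT2, alone read as male. It had 6901 Y-chromosome counts, against at most 14 in each other library. The part of these differences in the spreads was not tested. No test was made of these spreads, with 3 libraries per breed.

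GRB10 was also set against INSR, the receptor it restrains, as the ratio of their FPKM values within each library. It was 7.57, 7.80 and 9.47 in Wei against 5.47, 5.67 and 7.17 in Yorkshire, without overlap. The log2 ratio averaged 3.04 ± 0.18 in Wei and 2.60 ± 0.21 in Yorkshire (SD, n = 3 each), a difference of 0.44. A two-sided exact permutation test gave p = 0.1, the smallest that 3 against 3 allow, and 0.2 after adjustment over the 2 pairs tested. The other pair, TBC1D4 (ENSSSCG00000009464) over TBC1D1, had log2 ratios of 3.03, 4.07 and 4.33 in Wei and 3.82, 5.70 and 3.26 in Yorkshire, which overlap (difference -0.45, exact permutation p = 0.8). That ratio rests on as few as 9 counts, in Yorkshire replicate 2, and the difference was 0.27 without that library. The pair IRS2 over IRS1 was not analysed here.

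Around these members, 76 genes of 6 role lists were tested, of 91 listed and 83 with a row. Of these, 4 were higher in Wei and 2 lower, together 7.89%, beside the background of 5.08%; the list median was 0.02 and that of all tested genes -0.02. With edgeR, 0 of these genes passed without Yorkshire replicate 2 (14 at an unadjusted p under 0.05) or without Yorkshire replicate 3 (22). Of all tested genes, 2453 of 13695 and 2516 of 13184 had an unadjusted p under 0.05 in these fits.

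**Figure D4:**
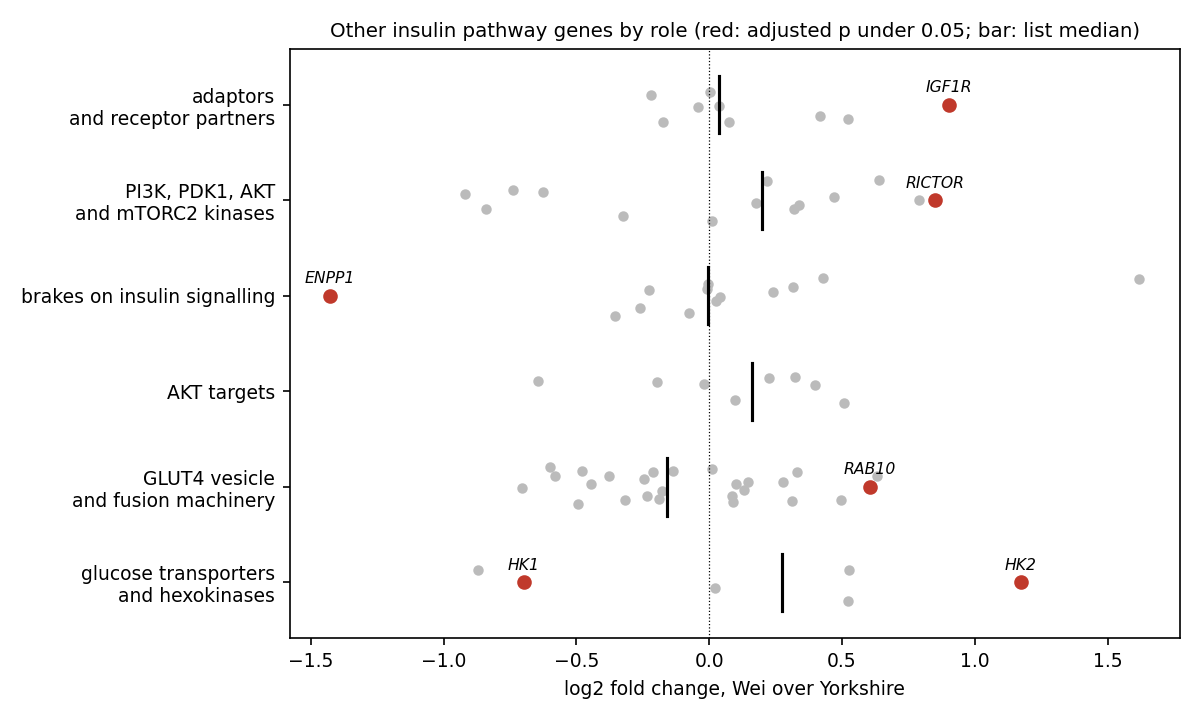
Log2 fold change of Wei over Yorkshire (x axis) of the 76 tested pathway genes in 6 role lists (rows); red points passed the threshold and are named, grey points did not, and black bars are list medians. Of the named points, HK2, at 1.17, lies farthest to the right and ENPP1, at -1.43, farthest to the left.

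Among adaptors and receptor partners, 1 of 9 rose and 0 fell, with a median of 0.04. The shares over all tested genes were 2.73% higher and 2.35% lower. IGF1R, the receptor closest to INSR in structure, stood at 24.5, 19.8 and 22.7 CPM in Wei against 12.2, 11.2 and 12.4 in Yorkshire (0.90 ± 0.14, edgeR adjusted p = 0.0175). INSR itself, at 0.33, did not pass; whether the 2 receptors differ in their response was not tested. GRB2, an adaptor of the Ras branch, had a log2 fold change of 0.002, whose sign turned under several settings. Its SE came out at 0.093, but this is a ratio of values near 0 and is not reliable. Other fits of all 6 libraries gave GRB2 an SE between 0.133 and 0.194. SOS1, the exchange factor that GRB2 brings to Ras, stood at 56.6, 69.2 and 52.3 CPM in Wei against 40.0, 42.6 and 41.4 in Yorkshire, without overlap, and did not pass (0.52 ± 0.14, edgeR adjusted p = 0.068). DESeq2 called it, with an adjusted p of 0.0258.

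Of the lipid kinase, AKT and mTORC2 genes, 1 of 14 rose and 0 fell with edgeR, with a median of 0.20. Over all tested genes, 2.73% rose and 2.35% fell. With edgeR 5 of the 14 had an unadjusted p under 0.05, as did 3075 of all 13209. DESeq2 called 2 higher and 2 lower in this list, and 1291 of all 13209 tested genes. RICTOR, the defining subunit of the mTORC2 complex that phosphorylates AKT, stood at 27.7, 30.9 and 27.2 CPM in Wei against 19.97, 12.55 and 14.9 in Yorkshire. It rose by 0.85 ± 0.18 on the log2 scale (edgeR adjusted p = 0.0393), without overlap. MAPKAP1, another mTORC2 subunit, had 0.34 ± 0.13 and PIK3CA, a catalytic subunit that PIK3R1 holds, 0.22 ± 0.15, and neither passed (edgeR adjusted p of 0.16 and 0.416).

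Among brakes on insulin signalling other than GRB10, 0 of 13 rose and 1 fell, with a median of -0.004. The shares over all tested genes were 2.73% and 2.35%. ENPP1, a membrane enzyme that can inhibit the receptor, stood at 7.57, 7.74 and 7.44 CPM in Wei against 10.1, 23.6 and 27.6 in Yorkshire (-1.43 ± 0.33, edgeR adjusted p = 0.0478). Yorkshire replicate 1 lay near the Wei values of ENPP1. The call was lost with limma voom (-1.29, adjusted p = 0.0949), which called 0 of the 13, with 1 at an unadjusted p under 0.05. INPPL1, a lipid phosphatase, and PPP2R5B, a regulatory subunit of protein phosphatase PP2A, were the most abundant per length of this list, with 0.04 ± 0.14 and 0.03 ± 0.16, and their signs turned with single libraries left out. GRB14, the close relative of GRB10, is named here after its values were seen. It stood at 1.18, 0.39 and 2.40 CPM in Wei against 0.352, 0.221 and 0.692 in Yorkshire, low levels that overlap (1.62 ± 0.66, edgeR adjusted p = 0.182).

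Of the AKT targets 0 of 8 passed with edgeR, DESeq2 or limma voom. With edgeR 3 had an unadjusted p under 0.05, as did 3075 of all 13209 tested genes, and the list median was 0.16. GSK3A, the kinase that AKT shuts off to free glycogen synthase, had a log2 fold change of 0.40 ± 0.14 (edgeR adjusted p = 0.14), and AKT1S1, a brake on mTORC1, 0.10 ± 0.11. In the GLUT4 vesicle and fusion list 1 of 26 rose and 0 fell with edgeR, with a median of -0.16. The shares over all tested genes were 2.73% and 2.35%. In this list 8 genes had an unadjusted p under 0.05 with edgeR. DESeq2 called 3 higher and 1 lower there, and 1291 of all 13209 tested genes. RAB10, a Rab that TBC1D4 acts on, studied mainly in adipocytes, stood at 338, 406 and 394 CPM in Wei against 240.5, 252 and 256 in Yorkshire (0.61 ± 0.13, edgeR adjusted p = 0.0363). RAC1, the GTPase of the actin arm of GLUT4 movement, had 0.09 ± 0.14 and did not pass.

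Among glucose transporters and hexokinases, 1 of 6 rose and 1 fell, with a median of 0.27. Over all tested genes, 2.73% rose and 2.35% fell. HK2, the hexokinase that traps glucose in insulin-sensitive muscle, stood at 77.03, 48.3 and 62.7 CPM in Wei against 31.2, 26.99 and 25.3 in Yorkshire (1.17 ± 0.18, edgeR adjusted p = 0.0182). HK1, the broadly expressed form, stood at 6.33, 6.37 and 6.80 CPM in Wei against 10.8, 10.1 and 10.8 in Yorkshire (-0.70 ± 0.15, edgeR adjusted p = 0.0363). SLC2A12, a further insulin-responsive transporter, had 0.52 ± 0.22 and did not pass (edgeR adjusted p = 0.203). RICTOR, ENPP1 and RAB10 each passed in 1 of 6 fits that left out a library, HK1 in 0, and IGF1R and HK2 in 4.

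**Figure D5:**
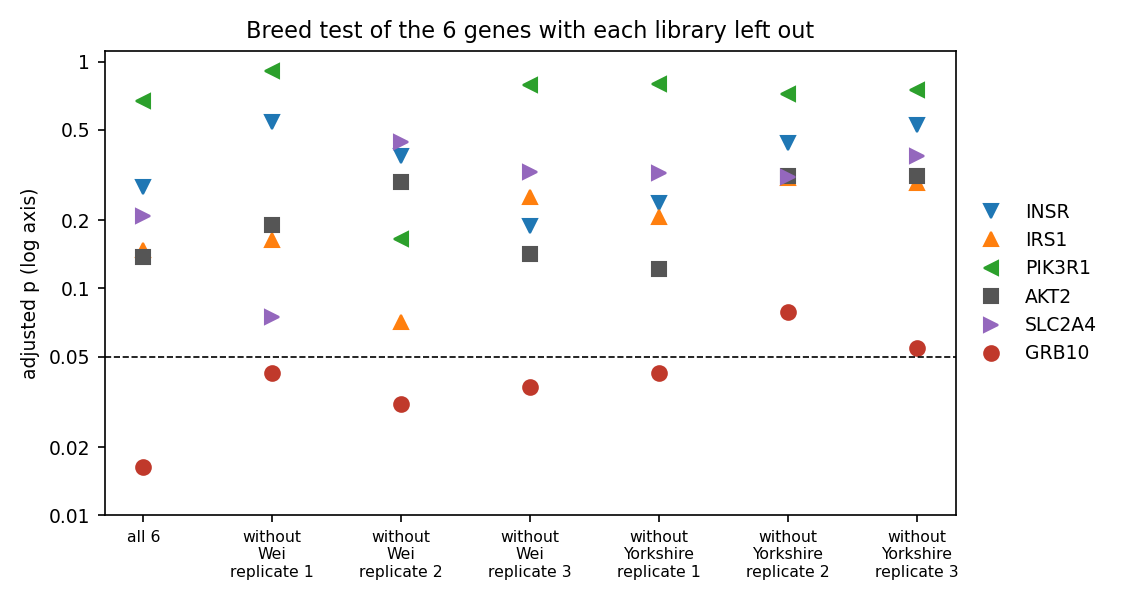
Adjusted p (log y axis, dashed line at 0.05) of the 6 genes in edgeR's quasi-likelihood test with all 6 libraries and with each left out in turn (x axis). GRB10 is under the line in the full fit and in 4 of 6 such fits; the other 5 genes stay above it in each.

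The 3 genes whose pattern over the 6 libraries lay closest to that of GRB10, among 5337 expressed genes with a symbol, were ASB8, PDK2 and KIAA0513. Closeness is the root mean square difference of log2 CPM after each gene is centred on its mean, and was 0.064, 0.071 and 0.073. PDK2, a kinase that switches off pyruvate dehydrogenase, stood at 97.7, 90.7 and 84.7 CPM in Wei against 52.7, 56.0 and 53.4 in Yorkshire. ASB8, an adaptor of cullin ubiquitin ligases, stood at 66.4, 60.3 and 56.4 CPM in Wei against 34.6, 35.7 and 34.4 in Yorkshire. These genes were picked for their likeness, and their values are given as a description.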

How the data were processed

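Total RNA of loin muscle was extracted with TRIZOL and libraries were made with a TruSeq RNA kit, per the labels' protocols. Tools listed in the submitters' processing notes, without roles, are CASAVA 1.7, TopHat2 2.0.9 and edgeR, with the build Sscrofa10.2. Read counter, annotation release and use of strand: not given in the sources used here. Each library has a raw count column and an FPKM column in the table the authors deposited, per the file headers. Over 4854 genes with more than 200 counts in each library, FPKM was the count over a fixed model length and the library total.

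Genes passing filterByExpr (minimum count 10) were TMM-scaled and fitted by breed alone with the quasi-likelihood test of edgeR 4.0.16 in R 4.3.3. Benjamini-Hochberg adjustment covered 13209 genes. An SE is the size of the unshrunken log2 fold change divided by the square root of F. The biological coefficient of variation was 21.8%. CPM is after TMM scaling, and FPKM as deposited. Gene names came from the table, and for list genes without a name there, from a gene name table by ID. On simulated counts for this comparison (13011 genes tested, independent, with a common dispersion), 48% of 2-fold changes and 97% of 4-fold changes were recovered, with 4% false calls. All pairs of libraries differed by more than sampling noise.

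The members and lists were chosen with earlier results of these data known. Another 2 listed genes, both past the threshold, are not reported here and are left out of the list counts. The named genes are the members, each pathway gene past the threshold, the 2 most abundant per length in each list, and the 3 genes closest in pattern to GRB10. GRB14 meets none of these rules and was added after its values were seen. Alternatives were RLE or library-size scaling, other filters, DESeq2 1.42.0, limma 3.58.1 (voom), a replicate block, a stricter threshold and each library left out. The summed rows, the lists by the table's own symbols and the further rows were added after the data were seen. Figures were drawn with matplotlib 3.10.9.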

Additional observations from a re-analysis of the deposited data

How the results depend on the processing

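GRB10 was higher in Wei and the 1 member past the threshold with RLE or library-size scaling, without a filter, with a 1 CPM filter, with limma voom, with summed rows and with the replicate block. DESeq2 called 2 members, GRB10 and IRS1, with 1291 genes in all and 13 pathway genes, the cause of which was not tested. At an adjusted p under 0.01, a stricter threshold, 0 members (4 at an unadjusted p under 0.05), 0 pathway genes (26 at an unadjusted p under 0.05, edgeR) and 52 genes in all were called. Of all 13209 tested genes, 3075 had an unadjusted p under 0.05 with edgeR. Pathway genes called numbered 4 with library size alone, which lost RAB10 (adjusted p = 0.0642) and HK1 (0.0637), and 2 with the replicate block, which lost RICTOR (0.0593), RAB10 (0.0599), ENPP1 (0.0626) and HK1 (0.0659); limma voom lost ENPP1. The cause was not tested. Same-numbered libraries had deviations from their breed means that correlated at 0.14, -0.0066 and 0.022 across genes, and not each library correlated best with its own number, so the number was read as a name and not as a pairing. Leaving out 1 library, with fewer samples in each fit, gave 0 to 1 members, 0 to 4 pathway genes and 60 to 394 genes in all; members were 0 without Yorkshire replicate 2 or 3 (edgeR, with 1 at an unadjusted p under 0.05 in each). The difference in log2 GRB10 over INSR lay between 0.34 and 0.57 in these fits and was 0.44 with the replicate block (exact sign-flip permutation p = 0.25, the smallest possible). That of TBC1D4 over TBC1D1 lay between -0.95 and 0.27, and its sign turned without Yorkshire replicate 2. Signs that turned were all of uncalled genes. GRB2 was at -0.01 with library size alone, -0.008 with the 1 CPM filter, -0.011 with limma voom and -0.004 with the replicate block. With a library left out, GRB2 lay between -0.079 and 0.106, PIK3R1 between -0.629 and 0.055, INPPL1 between -0.046 and 0.165, PPP2R5B between -0.061 and 0.178 and TBC1D1 between -0.112 and 0.598. RLE and library-size scaling shifted the median over all tested genes by 0.019 (log2) or less. TBC1D1 had 9 to 67 counts per library and a coefficient of variation of 63.1% in Yorkshire, which limits what can be seen. The part of each was not tested.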
